A study of Mus musculus with 3 samples.

Results

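Of the 4845 protein-coding mouse genes that carried at least 1 predicted m6A site in RAW 264.7 cells, 346 carried 10 or more, which is 7.14% (95% Wilson interval 6.45 to 7.90%). These site-rich genes were chosen by their number of sites: a gene had to hold at least 10 sites of the deposited list in its exons on the same strand, in any annotated transcript (GENCODE M21, GRCm38), and sites lying in exons of more than 1 gene were left out. RAW 264.7 is an established mouse macrophage line, here untreated. Poly(A)+ RNA from the line was subjected to miCLIP2, in which an antibody against m6A is crosslinked to RNA by UV light and marks the modified position in the cDNA. The 3 biological replicates form 1 group with no second condition, and the sites were pooled over them into 1 list of 19301 positions with a prediction score each. The list holds no read counts and no value per replicate, so the depth behind a site is unknown, no spread over samples can be given, and the comparisons below describe genes of 1 list without a test.

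N6-methyladenosine (m6A) is a methyl mark on adenosines within mRNA. It is written by a nuclear complex built around METTL3 and METTL14, mostly at the A of the sequence DRACH (D is A, G or T, R is A or G, H is A, C or T). The mark is known to lie mainly in long internal exons and in last exons around the stop codon, and reader proteins such as those of the YTH family link it to mRNA decay.

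To show what the listed positions look like in site-rich genes, the highest-scoring site of 8 of them is given with the 21 bases around the methylated A. Capitals mark the pentamer centred on the A, the strand is that of the gene, and the sequence is that of GRCm38.
Ahnak, CDS, chromosome 19, A at 9018064, score 0.945: cccaactgGGACTttggagtt
Plec, CDS, chromosome 15, A at 76176829, score 0.955: tcagccacGAACTctaccagc
Mki67, CDS, chromosome 7, A at 135696793, score 0.933: tgactcagTGACTgttgagga
Rassf4, 3′ UTR, chromosome 6, A at 116637803, score 0.981: gcgaacagAAACTctgtcttc
Cx3cr1, 3′ UTR, chromosome 9, A at 120050185, score 0.984: tggatcagGAACTgttaccct
Tlr2, CDS, chromosome 3, A at 83838294, score 0.930: aaatgtagAGACTttcagtga
Tnfaip8l2, 3′ UTR, chromosome 3, A at 95139817, score 0.841: gcaaggctGAACTgagtgagg
Ier2, 3′ UTR, chromosome 8, A at 84661965, score 0.9497: caggggaaGGACTgaggagcg
On the same build the genes Ahnak (chr19:8989284-9076914, plus strand), Mki67 (chr7:135689784-135716361, minus strand), Rassf4 (chr6:116633008-116673952, minus strand) and Tlr2 (chr3:83836272-83841767, minus strand) hold these sites in annotated exons. Each of these 8 pentamers fits DRACH. All 8 end in ACT, as did the highest-scoring sites of most other genes with many sites. Those of Prag1, Son and Pip5k1c lay at GGACA.

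The 346 site-rich genes lay on 20 chromosomes and together held 4655 sites, 24.8% (24.2 to 25.4%) of the 18784 sites assigned to protein-coding genes. With a minimum score of 0.7, the number fell to 63 genes, 1.59% of those with a site, holding 7.63% of the sites, and of the 78 genes chosen for naming, 47 changed their number of sites by more than 1.5 times. Their median was 12 sites, with quartiles of 11 and 15, against a median of 3 sites in the 4499 genes with 1 to 9. Most sat close to the threshold, as 202 had 10 to 12 sites, 18 had 20 or more and 9 had 25 or more. The 82 genes with exactly 10 sites and the 96 genes with exactly 9 were much alike. Their median CDS lengths were 2298 and 1957.5 nt, their median longest exons 1922 and 1936 nt, and their median 3′ UTRs 1501 and 1367 nt. The group is therefore the upper end of a continuous distribution, as the histogram of sites per gene shows.

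**Figure D1:**
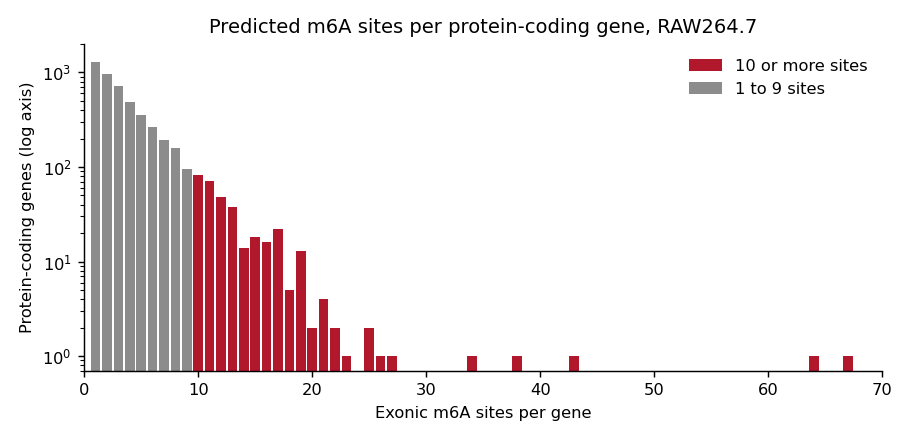
Number of protein-coding genes (log axis) against the number of exonic m6A sites per gene, with the 346 genes of 10 or more sites in red and the 4499 genes with 1 to 9 in grey. The counts fall without a gap through the threshold, from 96 genes at 9 sites to 82 at 10, and 2 genes, Ahnak and Plec, stand beyond 60 sites.

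Ahnak, which encodes a giant scaffold protein beneath the plasma membrane, had the most sites, 67 with a median score of 0.730. Of these, 65 lay in its CDS of 16968 nt and 2 in its 3′ UTR, and all 67 fell in its last exon of 17498 nt. Plec, encoding the cytoskeletal linker plectin, had 64 sites, of which 53 lay in a last exon of 7412 nt, although its transcript has 33 exons. Both genes thus carried most of their sites in 1 exon that holds a large part of the coding sequence. Rnf213, encoding a giant E3 ubiquitin ligase, had 43 sites, of which 24 lay in an internal exon of 3603 nt among 67 exons. In Mki67, whose product Ki-67 marks proliferating cells, 29 of 38 sites lay in an internal exon of 6836 nt, and all 38 were at DRACH. Spen, encoding a transcriptional corepressor, had 21 of its 34 sites in an internal exon of 8020 nt. In these 3 genes most sites lay in 1 internal exon, which held 71.7% of the CDS in Mki67 and 73.4% in Spen but 23.3% in Rnf213. Macf1, which links microtubules and actin, was less concentrated: its 26 sites lay in a transcript of 98 exons and 23495 nt, and 8 of them were in the longest exon.

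Other layouts were seen as well. Rassf4, a Ras-association domain protein, had 27 sites, every one of them in the 3′ UTR of a 5291 nt last exon, beside a CDS of 966 nt. Its median score of 0.827 was above the median of 0.730 over the site-rich genes. Rassf2 of the same family had 19 sites, the integrin gene Itga4, with a longer CDS of 3096 nt, had 21 and the immune receptor gene Nfam1 had 19, and in each of these 3 genes all sites lay in the 3′ UTR. Pcdh7, a protocadherin, was the exception among the genes with most sites in placing all 25 in its first exon of 4312 nt, of which 17 were coding and 8 lay in the 5′ UTR. Cx3cr1, the fractalkine receptor, had all 19 sites in a last exon of 3661 nt, 7 of them coding and 12 past the stop codon.

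**Figure D2:**
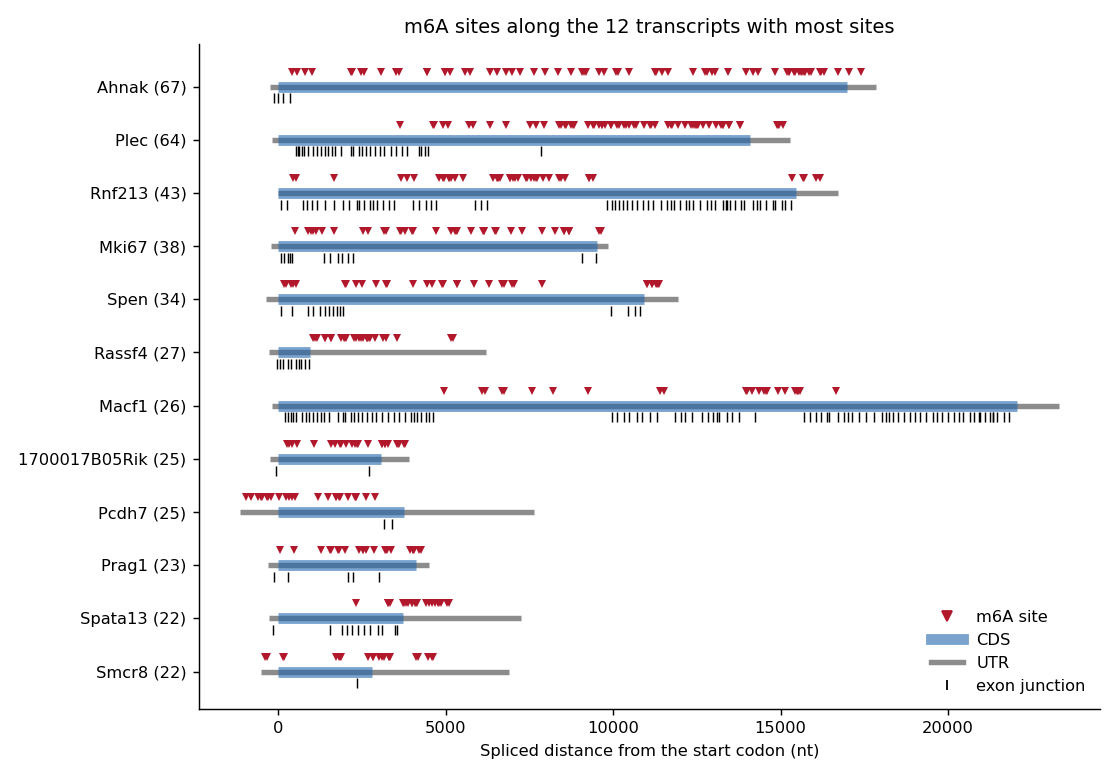
Spliced transcripts of the 12 genes with most sites, drawn by distance from the start codon in nt, with the CDS in blue, UTRs in grey, exon junctions as black ticks and m6A sites as red triangles. Sites fill stretches without junctions, such as the last exon of Ahnak and the internal exons of Mki67 and Spen, and in Rassf4 they lie past the stop codon. For Macf1, 1 of its 26 sites lies outside the drawn transcript and is not shown.

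For the comparison of lengths, each gene was read on its protein-coding transcript with the longest CDS. On these transcripts the site-rich genes had longer coding sequences, longer single exons and longer 3′ UTRs than genes with fewer sites. Of the 3 measures the longest exon differed most. Its median was 2577 nt (95% order-statistic interval 2363 to 2755 nt, n = 346 genes) against 1357 nt (1314 to 1397 nt, n = 4498 genes), a ratio of 1.90. The median CDS was 2314.5 nt (2139 to 2586 nt) against 1404 nt (1374 to 1443 nt), a ratio of 1.65. For the 3′ UTR the medians were 1628 nt (1387 to 1767 nt) and 1002.5 nt (959 to 1050 nt), a ratio of 1.62. The quartiles overlapped for each measure, for example 1790 to 3683 nt against 731 to 2396 nt for the longest exon. When each site-rich gene was paired with each of the other genes, the site-rich gene had the longer CDS in 70.05% of pairs, the longer longest exon in 72.9% and the longer 3′ UTR in 61.0%. The spliced length of the whole transcript separated the groups about as well, with medians of 4773 and 3006.5 nt and 73.7% of pairs. The number of exons did not separate the groups, with medians of 10 and 9 and 50.2% of pairs. The intervals treat genes as independent draws and cover counting error only.

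The lengths rose with the number of sites throughout. Genes with 1 site, 2 to 4, 5 to 9 and 10 or more had median longest exons of 1091.5, 1339.5, 1711 and 2577 nt. Over the same bins the median CDS was 1245, 1420.5, 1584 and 2314.5 nt, so that the step into the last bin was the largest of the 3. The median 3′ UTR was 788, 1011, 1218.5 and 1628 nt. Across the 4844 genes with a chosen transcript, which share 1 list and 1 annotation, Spearman's rank correlation with the number of sites was 0.25 for the longest exon, 0.21 for the CDS, 0.15 for the 3′ UTR and -0.002 for the number of exons. Among the site-rich genes alone it was 0.31 for the longest exon, 0.19 for the CDS and 0.03 for the 3′ UTR.

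**Figure D3:**
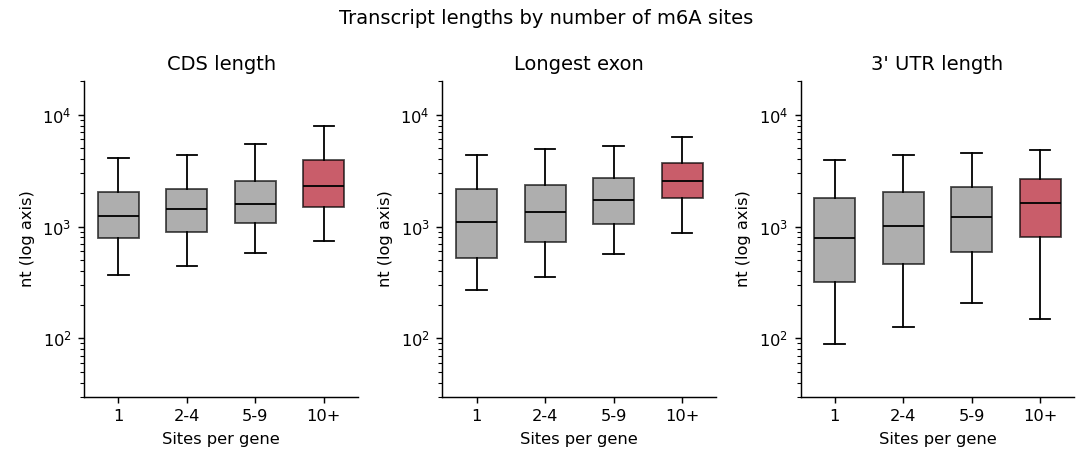
CDS length, longest exon and 3′ UTR length in nt (log axes) of genes with 1, 2 to 4, 5 to 9 and 10 or more m6A sites. Boxes give the quartiles, lines the medians and whiskers the 5th and 95th percentiles, with lengths of 0 drawn at 1 nt. The medians of 10 or more sites, 2314.5, 2577 and 1628 nt, are the highest of their panels, and the boxes overlap.

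Read the other way, the share of genes that were site-rich climbed with the CDS, and with the longest exon mainly up to the class of 2000 to 3000 nt. Of 1678 genes with no exon over 1000 nt, 24 were site-rich, or 1.43% (0.963 to 2.12%), against the background of 7.14%. The share was 6.23% at 1000 to 2000 nt, 12.1% at 2000 to 3000 nt and 15.7% (11.7 to 20.8%) above 5000 nt. By CDS it ran from 2.79% (2.05 to 3.79%) at up to 1000 nt to 26.5% (21.4 to 32.3%) above 5000 nt, where 66 of 249 genes were site-rich. By 3′ UTR it ran from 3.86% at up to 500 nt to 10.99% at 2000 to 4000 nt, and was 9.45% (6.66 to 13.2%) above 4000 nt, where the intervals overlap. Combining both regions, 17.6% (14.6 to 21.1%) of genes with a CDS over 3000 nt and a 3′ UTR of at most 2000 nt were site-rich, and 16.1% (11.8 to 21.5%) of those with both long. With only the 3′ UTR long the share was 9.50% (7.88 to 11.4%), and with neither it was 3.88% (3.25 to 4.63%).

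**Figure D4:**
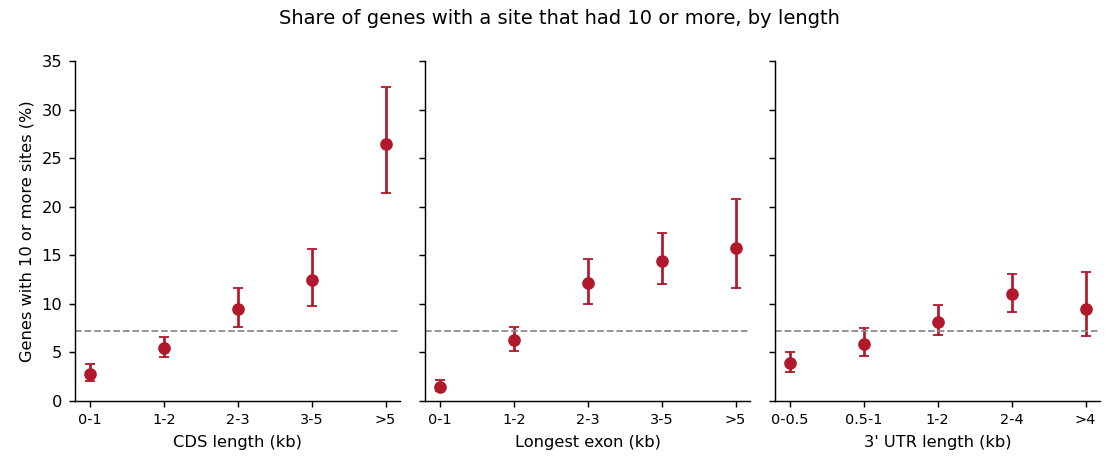
Percent of protein-coding genes with a site that had 10 or more, by CDS length, longest exon and 3′ UTR length in kb, with 95% Wilson intervals as bars and the share over all 4845 genes, 7.14%, as a dashed line. The share rises to 26.5% for a CDS above 5 kb and to 15.7% for a longest exon above 5 kb, and it levels off for the longest 3′ UTRs.

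Since a long transcript offers more positions, genes were also compared within 5 classes of equal size by spliced length. In the shortest class, 10 genes were site-rich, with a median longest exon of 1202.5 nt against 580 nt and a median of 3.5 exons against 5. In the next class the 23 site-rich genes had medians of 1451 nt against 1042.5 nt and 4 exons against 9, and in the middle class the 71 had 2063 nt against 1549 nt and 6 exons against 11. In the class above, the longest exons were closer, with 2447 nt against 2245 nt, while the exon numbers were 8 against 13. In the longest class, from 5054 nt upward and with 157 site-rich genes, the longest exon was not longer, at 3603 nt against 3771.5 nt, and the exon numbers were 15 against 17. There the site-rich genes had the longer CDS, 4131 nt against 3061.5 nt, and the shorter 3′ UTR, 2271 nt against 3299.5 nt. Exon number hardly separated the groups in this widest class, with 48.3% of pairs, and CDS and 3′ UTR did not differ one way throughout. The CDS of site-rich genes was the shorter in the middle class, 1485 nt against 1626 nt, and their 3′ UTR in the class above it, 1771 nt against 1919 nt.

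The type of the longest exon differed too. It was internal in 70 site-rich genes, 20.2% (16.3 to 24.8%), against 7.65% (6.91 to 8.46%) of the other genes, and it was the last exon in 70.5% (65.5 to 75.1%) against 85.4% (84.4 to 86.4%). An internal exon over 1000 nt was present in 101 site-rich genes, 29.2% (24.7 to 34.2%), against 6.18% (5.51 to 6.92%). The whole CDS lay in 1 exon in 41 of them, 11.8% (8.86 to 15.7%), against 4.94% (4.34 to 5.61%). Turned around, 15.6% (11.7 to 20.5%) of the 263 genes with an undivided CDS were site-rich and 6.66% (5.97 to 7.42%) of the 4581 others. Of the site-rich genes, 20 have a transcript of 1 exon only, among them Jun, which encodes a bZIP transcription factor, with 16 sites. Hps6, encoding a subunit of BLOC-2, a complex for the biogenesis of lysosome-related organelles, had 19 sites in its only exon of 2666 nt, listing 39.6% of its 48 DRACH positions.

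Within the site-rich genes, 264 of 346, or 76.3% (71.5 to 80.5%), had over 50% of their sites in the longest exon, against 68.7% (67.3 to 70.1%) of the other genes. All sites lay there in 122, or 35.3% (30.4 to 40.4%), against 58.7% (57.3 to 60.2%), many of the other genes having few sites. CDS sites outnumbered 3′ UTR sites in 208 genes, 3′ UTR sites outnumbered CDS sites in 126, and 12 had as many of each. CDS sites thus prevailed in 60.1% (54.9 to 65.1%) of the site-rich genes and 46.4% (45.0 to 47.9%) of the others. The 208 had a median CDS of 2940 nt and a median 3′ UTR of 1130 nt, and the 126 had 1498.5 and 2176.5 nt. At the ends of this range, 71 genes, 20.5% (16.6 to 25.1%), had no 3′ UTR site, against 40.2% (38.8 to 41.7%) of the other genes. Their median CDS was 4227 nt, and the longest exon was internal in 31 of them, such as Son and Srrm2, which encode nuclear speckle proteins. Another 35 genes, 10.1% (7.36 to 13.7%) against 35.1% (33.7 to 36.5%), had no CDS site, with a median 3′ UTR of 2852 nt and the longest exon last in 33, such as Pik3cd, a catalytic subunit of PI3-kinase, and the transcription factor gene Klf13. A 5′ UTR site was found in 43 site-rich genes, 12.4% (9.36 to 16.3%) against 5.16% (4.55 to 5.84%). Such shares depend on the number of sites per gene, which chose the groups.

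The 4655 sites of the site-rich genes lay more often in the CDS than the 14128 sites of the 4498 genes with 1 to 9 sites and a chosen transcript, 57.9% (56.5 to 59.3%) against 48.9% (48.1 to 49.7%), and less often in the 3′ UTR, 38.002% (36.6 to 39.4%) against 45.5% (44.7 to 46.4%). The shares by exon and by distance that follow cover the 4558 and 13658 of these sites that lie within the chosen transcripts, and those by exon junction the 4308 and 13337 in transcripts of more than 1 exon. Exons over 1000 nt held 83.1% (82.0 to 84.2%) against 57.6% (56.8 to 58.4%). The median exon around a site was 2344 nt against 1204 nt, and the median distance from a site to the nearest exon junction was 567 nt against 281 nt. The stop codon was at most 200 nt away for 16.9% (15.9 to 18.1%) of the sites of site-rich genes, against 37.7% (36.9 to 38.5%). A window of fixed length has limited room, so this share depends in part on the number of sites that chose the groups. Of their CDS sites, 47.2% (45.3 to 49.1%) lay in internal exons over 400 nt, against 31.3% (30.2 to 32.4%). The sites of 1 gene share its exons, so these intervals are narrower than the variation between genes.

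Sequence and score differed little. DRACH held 91.5% (90.7 to 92.3%) of the sites in site-rich genes and 92.1% (91.7 to 92.5%) in the others. GGACT was the most frequent pentamer in both, with 16.6% (15.6 to 17.7%) against 20.3% (19.7 to 20.98%), and GGACC made up 8.03% (7.29 to 8.85%) against 6.57% (6.17 to 6.99%). The median score per gene was 0.730 (0.723 to 0.738) in site-rich genes and 0.731 (0.727 to 0.734) in the others. The model that gave the scores reads the surrounding bases, the transcript region, the C-to-T transitions and the signal of a peak relative to other peaks of its gene. Motif and region depend on it in part, and the signal it reads is scaled within each gene.

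The share of DRACH positions that were listed was then compared by exon class. It is built from the count that chose the genes, and so a higher overall share, 10.9% against 3.90%, follows from the rule. The values by class are given as a description. In exons of 200 nt or less that are not last, site-rich genes had 52 of 8442 DRACH positions listed, 0.616% (0.470 to 0.807%), and the other genes 0.620% (0.573 to 0.671%). Above 200 and up to 400 nt the shares were 3.99% (3.34 to 4.75%) and 2.06% (1.90 to 2.23%), and above 400 and up to 1000 nt 16.8% (15.3 to 18.3%) and 9.08% (8.67 to 9.51%). Above 1000 nt they were 15.1% (14.3 to 15.99%) and 5.92% (5.56 to 6.31%), and in last exons 14.3% (13.8 to 14.8%) and 5.40% (5.29 to 5.52%).

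**Figure D5:**
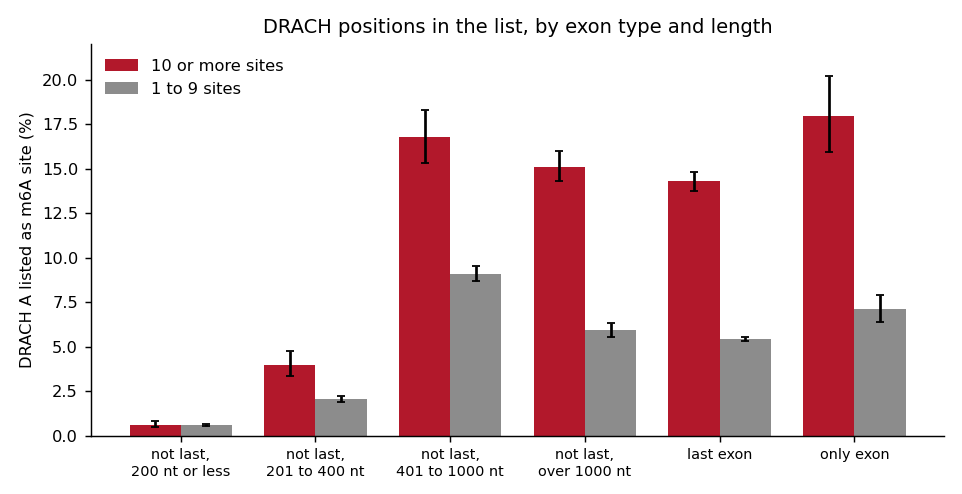
Percent of DRACH positions listed as m6A sites, by exon type and length, in genes with 10 or more sites (red) and 1 to 9 sites (grey), with 95% Wilson intervals. Exons of 200 nt or less sit near 0.62% in both groups, and the red bars are the higher ones in every longer class and in last and only exons.

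Neighbouring sites were common. The median gap from a site to the next in a site-rich gene was 104 nt on the spliced transcript, with quartiles of 40 and 245 nt, and 33.7% (32.4 to 35.1%) of the 4558 sites within chosen transcripts had another within 30 nt, against 27.7% (27.0 to 28.5%) in genes with fewer sites. Such a difference goes with the larger number of sites per gene. In 45 site-rich genes, 3 or more sites of the same exon fell within 30 bases. Of these, 3 windows are shown to make the spacing visible, with the listed A in capitals.
Crkl, 3′ UTR, chr16:17484011-17484040, plus strand: cttgtggAttgtgAActggaaAcactggtg
Pik3cd, 3′ UTR, chr4:149649833-149649862, minus strand: agctttatggAcggAcaggActgatctctt
Rbm15, CDS, chr3:107331188-107331217, minus strand: ctggAcagggAcagaggtgatcgggActtg
The window of Crkl, a signalling adaptor gene, holds 4 sites with scores from 0.547 to 0.943, and 2 of them are adjacent bases. In Pik3cd the scores of the 3 sites ran from 0.895 to 0.953. Rbm15, which encodes an RNA-binding subunit of the m6A writer complex, had all 15 of its sites in the CDS within a first exon of 3459 nt.

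Repeated sequence carried part of the sites in a few of the genes. In 12 site-rich genes at least 2 sites shared the same 11 bases centred on the A, 58 sites in all, and Ahnak, Mki67 and Son held most of these. In Ahnak 21 of 67 sites did so. The words below are the most frequent ones, with the pentamer in capitals.
Ahnak: ggtGGACAttg
Mki67: caaGAACTctt
Son: catGGACTccc
The Ahnak word occurs 15 times in the transcript, and 9 of its copies were listed, with scores from 0.518 to 0.903. These 9 share 21 identical bases, cccaaGGTGGACATTGatgtt with the 11 shared bases in capitals, so that equal sequence received unequal scores from a model that also reads signal. In Mki67, 5 of 7 copies were listed, with scores from 0.883 to 0.902. In Son, 5 of 7 copies were listed, from 0.868 to 0.923, the closest of them 30 nt apart. How uniquely reads map to such copies was not tested.

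Per length, the ranking changed. Over the union of a gene's exons, site-rich genes had a median of 2.01 sites per kb (1.83 to 2.15) against 0.552 (0.535 to 0.571) in the others, a difference that the rule itself produces. Tnfaip8l2, an inhibitor of immune receptor signalling, was the densest, with 13 sites in 1122 nt, or 11.6 per kb. Cd14, the co-receptor for lipopolysaccharide, followed with 13 sites and 7.51 per kb. Riox1, a JmjC-domain oxygenase, had 17 sites and 7.25 per kb in its only exon, and Hps6 had 7.13 per kb. Ahnak, with the most sites, stood at 3.36 per kb and Macf1 at 0.828. The immediate early gene Ier2, with 10 sites and a median score of 0.882, and Metrnl, which encodes a secreted factor, also with 10 sites, were among the 5 site-rich genes with the shortest transcripts, at 1522 and 1401 nt.

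A long CDS did not always go with many sites. The 8 genes with the longest CDS among those with fewer than 10 sites had coding sequences of 13932 to 26397 nt. Syne1, encoding a nuclear envelope spectrin-repeat protein, had 4 sites over a CDS of 26397 nt in 146 exons, and Dst, encoding dystonin, had 1 site over 23151 nt. Dync1h1, the cytoplasmic dynein heavy chain, had 7 sites in 77 exons, none longer than 1077 nt. Ubr4, an E3 ligase, had 4 sites, with 106 exons of at most 422 nt. Dst does have an exon of 5292 nt, which held none. Against these, Lrp1, an endocytic receptor of macrophages, had 16 sites over 89 exons with a longest exon of 930 nt, of which 15 lay in the CDS and 1 in the longest exon. The count of Lrp1 rests on low scores, with a median of 0.665, and at a minimum score of 0.7 it had 2 sites, fewer than the 5 of Mdn1, another of the 8. At that score Scaf1, Slc35e4 and Slx4 had 4 sites each and Tnrc6c 5.

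Gene groups were described by their site-rich share beside the 7.14% over all genes with a site. The lists were chosen with earlier results of these data known and are partial, so the shares cover the listed genes only. Long genes fill some of the lists. Cytoskeletal linkers and scaffolds had the highest share, with 9 of 23 genes, or 39.1% (22.2 to 59.2%), and a median CDS of 7623 nt over the 23. Among them were Ahnak, Plec and Macf1, the Golgi proteins Golga4 with 13 and Golgb1 with 12, Iqgap1 with 13, talin gene Tln1 with 11 and the centrosomal Pcnt with 10. Transcriptional corepressors and coactivators had 5 of 19, 26.3% (11.8 to 48.8%), among them Spen, Rai1 with 18, Tcf20 with 11 and Hcfc1 with 10. The median CDS over the 19 was 5277 nt. Of all genes with a site and a CDS above 5000 nt, 26.5% (21.4 to 32.3%) were site-rich. Rai1 had 16 of its 18 sites in an internal exon of 5527 nt.

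Macrophage receptors and innate signalling had 7 site-rich genes of 28 with a site, 25% (12.7 to 43.4%), with a median CDS of 2058 nt over the 28. Of all genes with a site and a CDS of 2000 to 3000 nt, 9.41% were site-rich. Tlr2, which senses bacterial lipoproteins, had 19 sites, 18 of them in its last exon of 2518 nt, which holds its whole CDS, and 6.30 per kb. Tlr7, which senses single-stranded RNA, had 12 sites, and Nlrp3, the inflammasome sensor, had 12. The others were Lrp1 with 16, Cd14 with 13, the interferon receptor subunit Ifnar2 with 11 and the CSF-1 receptor Csf1r with 11. Over all 21951 annotated protein-coding genes, 4845 carried a site and 346 were site-rich. Of 10 macrophage marker genes, 6 carried a site and 3, Csf1r and Cd14 among them, were site-rich, while Cd68, Adgre1, Itgam and Mrc1 had none. None of 5 fibroblast, 4 T cell, 3 B cell and 4 epithelial markers had a site, although a site in the list is not a measure of expression.

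Nuclear proteins made up several further groups. Splicing and speckle proteins had 4 of 19, 21.1% (8.51 to 43.3%), namely Son with 21, Srrm2 and Scaf1 with 17 each and Scaf11 with 15. All 17 sites of Scaf1 and 20 of the 21 of Son lay in the longest, internal exon. Mitosis and proliferation genes had 4 of 20 (20%, 8.07 to 41.6%), with Mki67, Cenpf at 13, Numa1 at 12 and Incenp at 11. Histone methylation and acetylation enzymes had 5 of 32, 15.6% (6.86 to 31.8%), led by the methyltransferase gene Kmt2d with 21 and the demethylase gene Kdm3b with 16. Chromatin remodellers had 3 of 25 (12%, 4.17 to 29.96%), with Arid1a at 17, Baz1b at 14 and Chd7 at 10. The list of DNA repair genes had 2 of 12, 16.7% (4.70 to 44.8%), Slx4 with 12 and Msh6 with 11. Outside this list, the repair gene Ercc2 had 11 sites. These lists are small. The median CDS was 4380 nt for mitosis, 4359 nt for the histone enzymes and 4476 nt for DNA repair. Of all genes with a site and a CDS of 3000 to 5000 nt, 12.4% were site-rich. For the chromatin remodellers the median CDS was 5481 nt, in the class above 5000 nt with 26.5%. For the splicing and speckle proteins it was 2853 nt, in the class of 2000 to 3000 nt with 9.41%.

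In the list of mRNA decay, silencing and m6A proteins, 4 of 27 genes, 14.8% (5.92 to 32.5%), had 10 or more sites. They were Rbm15, Tnrc6c with 14, whose product is a silencing scaffold, the m6A reader gene Ythdf2 with 12, and Zc3h13 with 10, another subunit of the writer complex. Of the 12 sites of Ythdf2, 11 lay in the CDS. The list for PI3-kinase and mTOR signalling had 3 of 14, 21.4% (7.57 to 47.6%), with Pik3cd at 13 and both Rptor and the phosphatase gene Inpp5d at 10. Outside this list, the PI3-kinase genes Pik3r5 with 18 sites and Pik3cg with 11 were site-rich too. E3 ubiquitin ligases had 2 of 16 (12.5%, 3.50 to 36.0%), Rnf213 and Trip12. The median CDS of their list was 5785.5 nt, in the class above 5000 nt with 26.5% site-rich. It was 3051 nt for the decay and m6A list and 3198 nt for the PI3-kinase list, in the class of 3000 to 5000 nt with 12.4%.

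Other groups stood near or below the background. The Zfp zinc finger proteins had 7 of 81, 8.64% (4.25 to 16.8%), led by Zfp646 with 19 sites, 17 of them in an internal exon of 5349 nt. Solute carriers had 7 of 102, 6.86% (3.36 to 13.5%), led by Slc35e4 with 14. No gene was site-rich among 23 cytosolic ribosomal proteins with a site (upper 95% Wilson bound 14.3%), whose median CDS was 456 nt and median longest exon 312 nt. The same held for 22 subunits of respiratory chain complexes I and V (14.9%), 20 lysosomal and phagosomal proteins (16.1%) and 14 kinesins and dyneins (21.5%). These upper bounds all lie above 7.14%.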

How the data were processed

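miCLIP2 libraries of poly(A)+ RNA came from 3 biological replicates of untreated RAW 264.7 cells. The submitters' processing notes name STAR 2.7.3a, SAMtools 1.9, UMI-tools 1.0.0 and bedtools 2.27.1 with mm10 and GRCm38.p6. Per the study's methods, the authors used GENCODE M23, called peaks with PureCLIP per replicate, kept peaks found in at least 2 replicates and scored those at A with m6Aboost. They deposited 1 pooled list whose value is this prediction score, above 0.5, which is not a methylation level. It holds no counts, so depth per site is unknown. The series text calls the line human; the organism label is mouse, and all 19301 positions were A in the mouse genome.

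Here starts were read as 0-based and printed 1-based. Sites were assigned to exons of GENCODE M21 on the same strand: 18903 lay in exons of 1 gene, 350 in several and 48 in none. Lengths came from the protein-coding transcript with the longest CDS, ties going to the longest spliced one. The CDS excludes the stop codon; 1 gene had no such transcript. Shares have 95% Wilson intervals and medians 95% order-statistic intervals, covering counting error only. No test was run, because genes of 1 list are not replicates. Scripts were tested on simulated data.

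The site-rich genes, gene lists and alternatives were chosen with earlier results of these data known. Named genes were the 25 with most sites, the 8 densest, the 5 with the shortest transcripts, the 8 longest CDS with fewer than 10 sites, 5 each with exactly 10 and 9 sites, the first 3 of each list and all marker genes, of which some are not reported here; other genes named (Jun, Klf13, Crkl, further list members) were chosen after their values were seen. Alternatives were minimum scores of 0.7 and 0.9, DRACH sites only, sites within 5 nt collapsed, shared sites reassigned, and thresholds of 8 and 15 sites. Other transcripts were also used, namely the longest spliced one and the one of longest genomic span after a filter for annotation support. Python 3.11.15, NumPy 2.4.6, SciPy 1.17.1, pandas 2.3.3 and matplotlib 3.10.9 were used.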

Additional observations from a re-analysis of the deposited data

How the results depend on the processing

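The number of site-rich genes depended on the minimum score. It was 63 of 3974 genes at 0.7 and 0 of 1276 at 0.9, where no median could be given, and 602 or 92 with thresholds of 8 or 15 sites. It stayed within 1.5 times under the other alternatives, with 331 genes when sites within 5 nt were collapsed, 283 with DRACH sites only, and 348 or 363 with shared sites reassigned. The share of assigned sites they held became 7.63% at a minimum score of 0.7, 24.0% with collapsed sites, 21.5% with DRACH sites only, 36.2% at 8 or more sites and 9.46% at 15 or more. The median CDS was 2094 nt at 8 or more sites and 2869.5 nt at 15 or more. It was 2091 nt on the transcript of longest genomic span among those passing a filter for annotation support, which 305 site-rich genes had. The median longest exon was 3236 nt at a minimum score of 0.7, 2249 nt at 8 or more and 3155 nt at 15 or more. On the filtered transcript of longest span it was 2276 nt, over the same 305 genes. The median density was 1.79 sites per kb at 0.7, 1.83 with DRACH sites only, 1.81 at 8 or more and 2.39 at 15 or more. The median 3′ UTR stayed between 1427 and 1681.5 nt. Wherever a median could be given, it was above that of genes with fewer sites for the CDS, the longest exon and the 3′ UTR. On the filtered transcript of longest span, the site-rich gene had the longer CDS in 68.0% of pairs. It had the longer longest exon in 67.4%, so by pairs the longest exon did not differ most there. Of 78 named genes, 31 kept their number of sites within 1.5 times at a minimum score of 0.7, 0 at 0.9 and 77 with DRACH sites only. No paired analysis was possible because there is 1 condition and its replicates share 1 pooled list, for which reason no replicate could be left out either.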

Other observations

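Beyond protein-coding genes, 2 genes of other types had 10 or more sites in their exons. Neat1, the long non-coding RNA that scaffolds paraspeckles, had 14, and the processed transcript 9930014A18Rik had 11. A further 17 protein-coding gene models would reach 10 sites only if sites in exons of more than 1 gene were counted for each. Srcap and Ctnnd1 went from 0 to 14 in this way, Adnp went from 0 to 11 and Setd1a from 1 to 11. D17Wsu92e was counted as site-rich with 10 sites, of which 7 lay outside its chosen transcript.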
